A study of Mus musculus with 4 samples.

Results

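Ccl19-expressing stromal cells of transplanted mouse hearts are described here. They were chosen by their measured UMI counts, as the fibroblasts of allografts that held at least 2 UMIs (unique molecular identifiers, each counting 1 captured RNA molecule) of Ccl19. A barcode counted as a cell with at least 500 UMIs, at least 300 genes and at most 20% mitochondrial UMIs. A cell counted as a fibroblast with at least 10 UMIs of the collagen genes Col1a1, Col1a2 and Col3a1 together, at most 1 UMI of Ptprc, Pecam1 and Cdh5 together, which mark leukocytes and endothelium, and at most 2 UMIs of the mural cell genes Rgs5, Myh11 and Kcnj8. This gave 1187 Ccl19-expressing cells among 1947 allograft fibroblasts, 19509 allograft cells and 30895 cells in all. They were compared with the 585 allograft fibroblasts with 0 Ccl19 UMIs, called Ccl19-zero fibroblasts here, and 175 allograft fibroblasts with 1 UMI were left out of both classes. The series profiled transplanted hearts on day 5 by droplet-based single-cell RNA sequencing. Allogeneic grafts (replicates 1, 2 and 3) come from a donor that differs genetically from the host, and the isogeneic graft (replicate 2) comes from a genetically identical donor. The labels name no strain, age, sex, agent or genetic change, and nothing in them says that the replicates came from separate animals, so p-values here measure only the spread between libraries.

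CCL19 is a chemokine that acts through the receptor CCR7 and draws T cells and mature dendritic cells into lymphoid tissue. In lymph nodes and spleen it is made by fibroblastic reticular cells, stromal cells of the T cell zone that also supply survival factors to lymphocytes. CXCL5 attracts neutrophils through CXCR2, PTX3 is a long pentraxin that binds microbes and complement components, and C1s1 encodes a mouse form of complement protease C1s. These 3 genes were given as markers of the cells together with Ccl19.

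The 3 allogeneic libraries and the isogeneic one held 51054446, 63434265, 51463909 and 100038951 UMIs over all barcodes. Allogeneic replicate 3 stood apart: it held 1801 of the 1947 allograft fibroblasts and 93.2% of the Ccl19-expressing cells. Replicates 1, 2 and 3 gave 20, 61 and 1106 Ccl19-expressing cells and 22, 33 and 530 Ccl19-zero fibroblasts, so values from replicates 1 and 2 rest on few cells. The classes also differed in depth. Ccl19-expressing cells had a median of 18759, 13907 and 10707 UMIs in replicates 1, 2 and 3, against 23654.5, 4076 and 3102.5 UMIs in Ccl19-zero fibroblasts. The gap was wide in replicates 2 and 3 and ran the other way in replicate 1. Between 14 and 31 barcodes were shared by each pair of libraries, and no barcode was a Ccl19-expressing cell in both libraries of a pair.

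Levels are given as CPM, counts per 1000000 UMIs, over the summed cells of a class in a library, always in the order of allogeneic replicates 1, 2 and 3. Ccl19 stood at 1028, 2368 and 1621 CPM in Ccl19-expressing cells and at 0 in Ccl19-zero fibroblasts by construction. The gene lies on the minus strand of chromosome 4, from 42754525 to 42756577 in mm10. Single cells held a median of 23.5, 16 and 7 Ccl19 UMIs and up to 74, 287 and 773, so a few cells carried far more of the transcript than most. Cxcl5 stood at 124, 156 and 622 CPM in Ccl19-expressing cells, against 66.0, 105 and 86.8 CPM in Ccl19-zero fibroblasts. C1s1 stood at 622, 580.4 and 482 CPM in Ccl19-expressing cells, against 304, 369 and 145 CPM in Ccl19-zero fibroblasts. Both genes were higher in Ccl19-expressing cells of each library, and for Cxcl5 the lowest library of that class lay above the highest Ccl19-zero value by little. Ptx3 differed between libraries: it stood at 46.6, 179 and 487 CPM in Ccl19-expressing cells, against 155, 36.9 and 88.2 CPM in Ccl19-zero fibroblasts. Replicates 2 and 3 had more Ptx3 in Ccl19-expressing cells and replicate 1 had less. Because the cells were described with these markers, their levels are given without a test. At least 1 UMI of each of Cxcl5, Ptx3 and C1s1 was found in 25%, 21.3% and 42.9% of Ccl19-expressing cells, so a minority in each library carried the whole set.

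**Figure D1:**
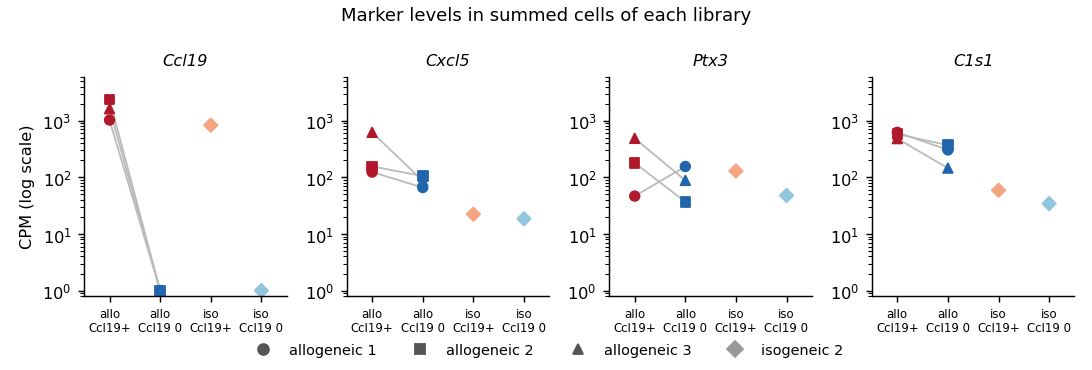
Levels of Ccl19, Cxcl5, Ptx3 and C1s1 in CPM on a log scale, in summed Ccl19-expressing cells (at least 2 UMIs, red) and Ccl19-zero fibroblasts (blue) of the 3 allogeneic libraries, joined by library, and in the same classes of the isogeneic library (diamonds). Values under 1 CPM are drawn at 1. C1s1 and Cxcl5 are higher in Ccl19-expressing cells of all 3 allogeneic libraries, while Ptx3 is lower in them in replicate 1.

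The threshold cut through a gradient. In replicate 3, the 150 cells with exactly 2 Ccl19 UMIs had 251 CPM of Cxcl5, 149 CPM of Ptx3 and 259.9 CPM of C1s1. The 165 cells with 1 UMI, just outside the rule, had 195 CPM of Cxcl5, 118 CPM of Ptx3 and 240.03 CPM of C1s1. Replicates 1 and 2 each held 2 cells with exactly 2 UMIs and 5 cells with 1 UMI, too few to compare.

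The upstream sequences of Ptx3, C1s1 and Mmp3, a matrix protease gene described below, are shown because they are markers of the cells or, for Mmp3, passed the test against Ccl19-zero fibroblasts in 15 of 16 alternatives. The 16 include a limit of at least 20 cells per class, which repeats the main fit. Cxcl5, Hp and C4b are named only, because the sequence set used here held no window for them. The printed sequences are the 250 bases before the annotated start in RefSeq (GRCm38.p6), written 5′ to 3′ on the gene's strand. Capitals mark matches on either strand to GGG and CC 5 bases apart (a κB-type pattern), TTCNNNGAA (a gamma-activated site pattern), GAAA and GAAA 2 bases apart (an interferon response pattern) or TGANTCA (an AP-1 pattern).
Ptx3, chr3:66219637-66219886, plus strand: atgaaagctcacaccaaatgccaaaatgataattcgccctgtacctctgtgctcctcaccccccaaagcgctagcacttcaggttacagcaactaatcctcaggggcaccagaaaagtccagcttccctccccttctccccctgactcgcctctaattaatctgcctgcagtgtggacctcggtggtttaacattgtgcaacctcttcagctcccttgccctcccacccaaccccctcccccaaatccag
C1s1, chr6:124542360-124542609, minus strand: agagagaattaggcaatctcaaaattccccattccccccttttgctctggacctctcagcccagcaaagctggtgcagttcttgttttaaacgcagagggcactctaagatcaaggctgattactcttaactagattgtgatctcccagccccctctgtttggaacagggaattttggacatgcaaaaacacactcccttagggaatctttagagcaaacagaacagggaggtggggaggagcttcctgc
Mmp3, chr9:7445572-7445821, plus strand: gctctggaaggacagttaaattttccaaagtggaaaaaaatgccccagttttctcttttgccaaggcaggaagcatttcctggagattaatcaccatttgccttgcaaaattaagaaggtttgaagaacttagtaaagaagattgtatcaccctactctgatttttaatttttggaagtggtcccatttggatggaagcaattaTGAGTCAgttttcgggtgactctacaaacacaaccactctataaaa
Among these 3 windows only that of Mmp3 held a match, TGAGTCA, whose first base lies 46 bases before the start. RefSeq gives C1s1 a second start, whose window overlaps a C1s1 exon and held 1 match to the κB-type pattern, and it is not printed. Among 32851 upstream windows of the same length, 45.8% held the κB-type pattern, 7.02% the gamma-activated site pattern, 2.98% the interferon response pattern and 6.75% the AP-1 pattern. The window before the RefSeq start of Ccl19 held 1 match to the κB-type pattern and 1 to the interferon response pattern. It is not printed because GENCODE places Ccl19 exons in it. The window of Sfrp2, a gene described below, was also scanned. It held 4 matches to the κB-type pattern and is not printed.

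The fibroblast identity of the cells was checked on markers that the rule did not use. All 12 fibroblast markers were detected in Ccl19-expressing cells. Dcn, a proteoglycan gene, stood at 4045, 6380.5 and 3933 CPM in Ccl19-expressing cells, against 2915, 3410.3 and 3231 CPM in Ccl19-zero fibroblasts. Pdgfra, the receptor gene that marks cardiac fibroblasts, stood at 197, 147 and 240.5 CPM in Ccl19-expressing cells, against 128, 105 and 130.3 CPM in Ccl19-zero fibroblasts. Both were higher in Ccl19-expressing cells of each library, and neither passed the test described below. Of the 12 markers, 5 were higher in Ccl19-expressing cells of all 3 libraries and none was lower in all 3. Among all genes tested, 9.20% were higher and 25.1% lower in all 3. In that test 10 of the 12 had a positive change, against 3632 of all 7618 genes, and none passed. Against isograft fibroblasts, a comparison described further below, 3 of the 12 had a positive change, and 1 was called lower. Of all 14867 genes tested there, 7067 had a positive change and 0.948% were called lower. Over all 12 markers the summed level was 8579, 12444 and 10003 CPM in Ccl19-expressing cells, against 6025, 7545 and 10514 CPM in Ccl19-zero fibroblasts.

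Transcripts of other cell types were present in both classes. The 13 monocyte and macrophage markers summed to 1348, 1042 and 1818 CPM in Ccl19-expressing cells, against 705, 1745 and 1846 CPM in Ccl19-zero fibroblasts. The 15 T and NK cell markers summed to 178, 232 and 315 CPM in Ccl19-expressing cells, against 76.6, 301 and 176 CPM in Ccl19-zero fibroblasts, and Cd3d, Cd3e and Cd3g were above 0 in each. For the 10 dendritic cell markers the sums were 282, 201 and 176 CPM in Ccl19-expressing cells, against 238, 253 and 146 CPM in Ccl19-zero fibroblasts. These 3 lists overlapped between the classes. Mural cell markers (12 genes) summed to 717, 642 and 684 CPM in Ccl19-expressing cells, against 522, 836 and 1698 CPM in Ccl19-zero fibroblasts, and Ccl19-zero fibroblasts of replicate 3 were the highest. Mesothelial and epicardial markers (12 genes) summed to 64.9, 69.8 and 210.4 CPM in Ccl19-expressing cells, against 347, 205 and 256 CPM in Ccl19-zero fibroblasts, lower in the first class in each library.

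Ccl19-expressing cells made up 42.6% of fibroblasts in allogeneic replicate 1 (Wilson 95% interval 29.5 to 56.7%, 20 of 47 cells). They made up 61.6% in replicate 2 (51.8 to 70.6%, 61 of 99 cells) and 61.4% in replicate 3 (59.1 to 63.6%, 1106 of 1801 cells). In the isograft 3.73% of fibroblasts held at least 2 Ccl19 UMIs (3.25 to 4.28%, 194 of 5199 cells). The interval of each allogeneic library lay above that of the isograft, and with 1 isogeneic library the difference between graft types has no replicate check. After each cell was thinned to 2000 UMIs, with shallower cells left out, the shares were 31.8%, 44.7% and 35.1% in the allografts and 1.74% in the isograft. Among cells with at least 5000 UMIs they were 51.4%, 75.7% and 76.8% in the allografts and 3.47% in the isograft. The level therefore moved with depth, while each allogeneic share stayed above the isograft share in all 3 ways of counting. Intervals cover counting error only.

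**Figure D2:**
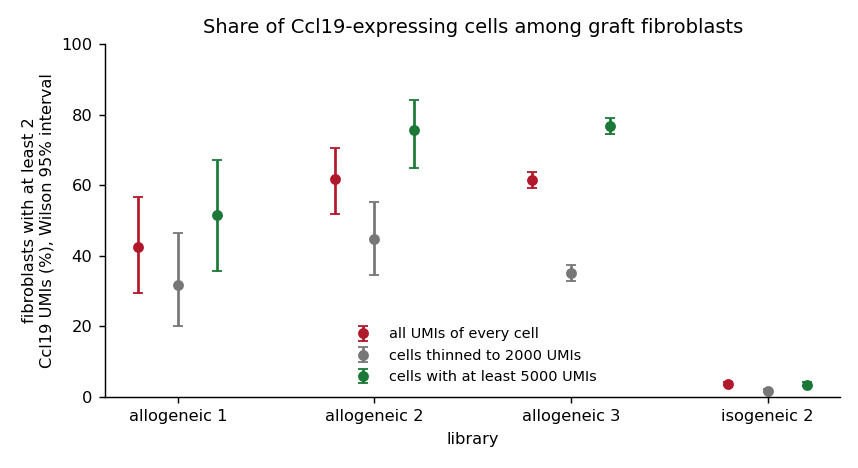
Percentage of fibroblasts with at least 2 Ccl19 UMIs in the 3 allogeneic libraries and the isogeneic library, with Wilson 95% intervals, counted on all UMIs (red), after thinning each cell to 2000 UMIs (grey) and among cells with at least 5000 UMIs (green). The isograft points lie between 1.74% and 3.73%, below every allogeneic point.

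Free RNA in droplets can place a transcript in cells that do not make it, so Ccl19 was also counted in T cells, which should lack it. The T cell gate required 0 UMIs of Col1a1, Col1a2 and Col3a1. It thereby left out droplets with stray collagen RNA, so its Ccl19 share cannot measure free fibroblast RNA in full. At least 2 Ccl19 UMIs were found in 42.6%, 61.6% and 61.4% of fibroblasts of replicates 1, 2 and 3, at median depths of 19158, 12972 and 7433 UMIs. In T cells the shares were 0.179%, 0.237% and 0% at median depths of 11733, 8322 and 4108 UMIs, and the 0 of 130 cells in replicate 3 allows a share of up to 2.31%. In each library the fibroblast share lay far above the T cell share. Ccl19 was not restricted to the fibroblast gate. Mural cells, the pericytes and smooth muscle of vessels, held at least 2 UMIs in 11.1%, 13.6% and 28.1% of cells, and their summed level reached 67.8, 2635 and 3703 CPM over 9, 44 and 57 cells. Cells gated as mature dendritic cells, which are known to make CCL19, held at least 2 UMIs in 24.1%, 15.4% and 62.7% of 29, 26 and 59 cells. Endothelial cells held at least 2 UMIs in 2.101%, 0.629% and 10.3% of cells. The mural, mature dendritic and endothelial gates all set no collagen limit, so collagen-rich cells could pass them. In replicate 2 the mural level rested on 6 of the 44 cells with at least 2 UMIs. In replicate 3, 11 of the 59 mature dendritic cells also passed the fibroblast gate. The fibroblast gate accounted for 30.1%, 42.9% and 66.3% of the Ccl19 UMIs of a library, against 77.5% in the isograft.

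Genes other than the markers and those of the rule were tested between the classes on counts summed per library, with edgeR's quasi-likelihood test, the library as a block and Benjamini-Hochberg adjustment over all genes. Of 7618 genes, 11 passed at an adjusted p under 0.05 (0.144%), 8 of them higher in Ccl19-expressing cells (0.105%) and 3 lower (0.0394%), and 687 had an unadjusted p under 0.05. The higher genes encode secreted defence and matrix-remodelling proteins, a signalling enzyme, an iron store and a Ccl19 pseudogene. The lower genes include the cytokine gene Il11 and the basement membrane collagen gene Col15a1. With 3 sums per class and a block the fit leaves 2 residual degrees of freedom among libraries, and the count was 0 without the block (323 genes at an unadjusted p under 0.05) and 55 with DESeq2. CPM values of most genes were slightly lower in Ccl19-expressing cells, with a median log2 ratio of -0.07, -0.05 and -0.16 in replicates 1, 2 and 3, while the median fitted log2 change was -0.02.

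Mmp3 encodes stromelysin-1, a secreted matrix protease. It stood at 274, 885 and 304 CPM in Ccl19-expressing cells, against 21.3, 82.4 and 45.0 CPM in Ccl19-zero fibroblasts. The classes did not overlap, and the gene rose in Ccl19-expressing cells (log2 change 3.30 ± 0.23 (SE), adjusted p = 0.000484). Hp encodes haptoglobin, an acute phase protein that binds free haemoglobin. It stood at 144, 103 and 2423 CPM in Ccl19-expressing cells, against 6.39, 11.4 and 183 CPM in Ccl19-zero fibroblasts. Each library was far higher in the first class, although the Ccl19-zero value of replicate 3 exceeded the Ccl19-expressing values of replicates 1 and 2 (log2 change 3.89 ± 0.26 (SE), adjusted p = 0.000464). The Ccl19-zero values of Hp in replicates 1 and 2 rested on 3 and 4 UMIs. Neutrophil markers, 7 genes, summed to 16.2, 19.8 and 315 CPM in Ccl19-expressing cells, against 12.8, 62.5 and 211 CPM in Ccl19-zero fibroblasts. Hp is also made by neutrophils, and the part of these transcripts in its change was not tested.

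C4b encodes complement component C4, which C1s cleaves. It stood at 227, 423 and 168 CPM in Ccl19-expressing cells, against 53.2, 153 and 38.6 CPM in Ccl19-zero fibroblasts, with no overlap (log2 change 1.99 ± 0.22 (SE), adjusted p = 0.0113). Reads of C4b and its near copy C4a may not be fully separable, and C4a was at most 1.04 CPM in any class of the allografts. Enpp2 encodes autotaxin, the secreted enzyme that makes lysophosphatidic acid and is known in lymph node stroma. It stood at 79.0, 64.6 and 92.4 CPM in Ccl19-expressing cells, against 36.2, 19.9 and 19.3 CPM in Ccl19-zero fibroblasts, again with no overlap (log2 change 1.96 ± 0.28 (SE), adjusted p = 0.0481). Sfrp2, a secreted modulator of Wnt signalling, stood at 26.3, 187 and 309 CPM in Ccl19-expressing cells, against 6.39, 14.2 and 70.0 CPM in Ccl19-zero fibroblasts. It rose in each library, though the classes overlapped across libraries (log2 change 2.61 ± 0.30 (SE), adjusted p = 0.0121). The Ccl19-zero values of Sfrp2 in replicates 1 and 2 rested on 3 and 5 UMIs.

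Chil1 encodes a secreted chitinase-like protein. It stood at 22.3, 377 and 54.2 CPM in Ccl19-expressing cells, against 0, 0 and 6.78 CPM in Ccl19-zero fibroblasts, where replicates 1 and 2 held no UMI (log2 change 4.20 ± 0.59 (SE), adjusted p = 0.0428). Its fitted change depends on how zeros are handled and is no bound. Fth1, the ferritin heavy chain gene for iron storage, stood at 10662, 20856 and 11850.3 CPM in Ccl19-expressing cells, against 3815, 8099.6 and 4889.9 CPM in Ccl19-zero fibroblasts (log2 change 1.48 ± 0.13 (SE), adjusted p = 0.00277). The classes did not overlap for Fth1. The ferritin light chain gene Ftl1 stood at 1944, 1976 and 2018 CPM in Ccl19-expressing cells, against 1435, 2518 and 2424 CPM in Ccl19-zero fibroblasts, and did not pass the test (adjusted p = 0.984). Ccl19-ps2, a pseudogene, stood at 436, 773 and 660.3 CPM in Ccl19-expressing cells, against 2.13, 8.53 and 31.4 CPM in Ccl19-zero fibroblasts (log2 change 5.35 ± 0.41 (SE), adjusted p = 0.000923). Its reads may come from Ccl19 itself, which it resembles, so it is not independent of the rule.

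Il11 encodes a cytokine made by activated fibroblasts. It stood at 10.1, 6.25 and 3.62 CPM in Ccl19-expressing cells, against 34.1, 54.0 and 42.1 CPM in Ccl19-zero fibroblasts. The classes did not overlap, and Il11 fell in Ccl19-expressing cells (log2 change -3.05 ± 0.35 (SE), adjusted p = 0.0122). Its low levels in Ccl19-expressing cells of replicates 1 and 2 rested on few UMIs. Col15a1 stood at 128, 91.7 and 231 CPM in Ccl19-expressing cells, against 339, 199 and 618 CPM in Ccl19-zero fibroblasts, lower in each library (log2 change -1.22 ± 0.18 (SE), adjusted p = 0.04995). It missed the threshold in 8 of 16 alternatives, with adjusted p values from 8.63e-06 to 0.999. The 16 include a limit of at least 20 cells per class, which repeats the main fit. Gm41609, a long noncoding RNA, stood at 16.2, 14.6 and 12.9 CPM in Ccl19-expressing cells, against 74.5, 62.5 and 46.1 CPM in Ccl19-zero fibroblasts (log2 change -1.85 ± 0.24 (SE), adjusted p = 0.0290).

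**Figure D3:**
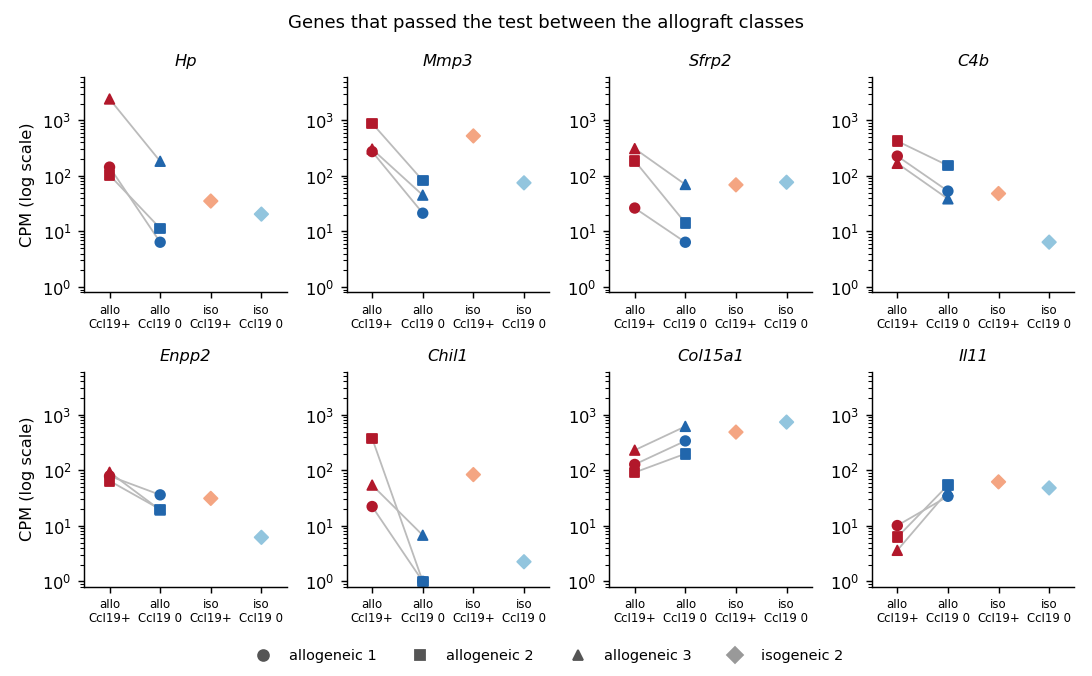
CPM on a log scale for 8 of the 11 genes that passed edgeR's test between Ccl19-expressing cells (red) and Ccl19-zero fibroblasts (blue) of the allografts, joined by library, with the same classes of the isogeneic library as diamonds. Values under 1 CPM are drawn at 1. Hp, Mmp3, Sfrp2, C4b, Enpp2 and Chil1 are higher in Ccl19-expressing cells of all 3 allogeneic libraries, and Col15a1 and Il11 are lower.

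The calls rested on the libraries unequally. Without replicate 1, 5 of the 11 calls remained: Ccl19-ps2, Hp, Mmp3, Il11 and Sfrp2. All 11 remained without replicate 2 or without replicate 3, among 138 and 162 calls. When cells were thinned to 2000 UMIs, 1379 genes could be tested and 3 calls remained, Ccl19-ps2, Fth1 and Mmp3. Among cells with at least 5000 UMIs all 11 remained among 15.

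Complement genes were mostly higher in Ccl19-expressing cells. Of 9 tested, 9 had a positive log2 change, against 3632 of all 7618 genes tested. The median was 1.20, against -0.02 over all 7618 genes, and 1, C4b, passed. The counts of positive changes in the lists below are to be read beside this share over all genes. C3 stood at 3004, 2383 and 2038 CPM in Ccl19-expressing cells, against 696, 1751 and 508 CPM in Ccl19-zero fibroblasts (adjusted p = 0.0974). C1ra, the partner protease of C1s, stood at 387, 342 and 324 CPM in Ccl19-expressing cells, against 181, 188 and 134 CPM in Ccl19-zero fibroblasts (adjusted p = 0.0617). Cfb, factor B of the alternative pathway, stood at 70.9, 54.2 and 77.9 CPM in Ccl19-expressing cells, against 17.0, 36.9 and 19.995 CPM in Ccl19-zero fibroblasts (adjusted p = 0.0836). None of these 3 passed. Where classes are said here not to overlap, the share of all genes without overlap was not counted. Serping1, the C1 inhibitor gene, stood at 2280.0, 2622 and 1966 CPM in Ccl19-expressing cells, against 1409, 1921 and 988 CPM in Ccl19-zero fibroblasts (adjusted p = 0.115). By CPM, 8 of 23 complement genes were higher in Ccl19-expressing cells of all 3 libraries and 3 were lower in all 3, against 9.20% and 25.1% of all genes tested.

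MHC class II genes, which present antigen to CD4 T cells, gave 7 positive changes of 7 tested (median 1.37) and no call. H2-Ab1 stood at 963, 932 and 595 CPM in Ccl19-expressing cells, against 217, 497 and 235 CPM in Ccl19-zero fibroblasts (adjusted p = 0.0617). Cd74, the invariant chain, stood at 2564, 2584 and 1766 CPM in Ccl19-expressing cells, against 669, 1861 and 675 CPM in Ccl19-zero fibroblasts (adjusted p = 0.0947), and replicate 2 had a high Ccl19-zero value. The macrophage and dendritic cell marker sums given above were also higher in Ccl19-zero fibroblasts than in Ccl19-expressing cells of replicate 2, and their part in these values was not tested.

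Reticular stroma genes, 26 in the list, gave 15 positive changes of 18 tested (median 0.62), with Enpp2 the only call. Vcam1, an adhesion molecule for leukocytes, stood at 835, 1933 and 1023 CPM in Ccl19-expressing cells, against 456, 466 and 508 CPM in Ccl19-zero fibroblasts (adjusted p = 0.0631). Clu, which encodes clusterin, stood at 85.1, 379 and 102 CPM in Ccl19-expressing cells, against 2.13, 93.8 and 37.1 CPM in Ccl19-zero fibroblasts (adjusted p = 0.0737). The Ccl19-zero value of Clu in replicate 1 rested on 1 UMI. Fbln1, the matrix protein fibulin-1, stood at 174, 272 and 392 CPM in Ccl19-expressing cells, against 17.0, 90.9 and 172 CPM in Ccl19-zero fibroblasts (adjusted p = 0.0808). Pdpn, which encodes podoplanin and marks fibroblastic reticular cells, stood at 205, 173 and 151 CPM in Ccl19-expressing cells, against 379, 324 and 136 CPM in Ccl19-zero fibroblasts, so that replicates 1 and 2 had less of it in Ccl19-expressing cells.

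Other defining genes of lymphoid stroma were scarce, apart from Ccl21a in replicate 3. Cxcl13, a B cell attractant, stood at 0, 10.4 and 7.45 CPM in Ccl19-expressing cells, against 0, 0 and 0.357 CPM in Ccl19-zero fibroblasts. Ccl21a, the other CCR7 ligand, stood at 0, 3.13 and 77.7 CPM in Ccl19-expressing cells, against 0, 11.4 and 155 CPM in Ccl19-zero fibroblasts, lower in the first class in replicates 2 and 3. Its near-identical copies make its reads uncertain. Il7, a survival factor for T cells, stood at 10.1, 0 and 3.09 CPM in Ccl19-expressing cells, against 6.39, 8.53 and 0 CPM in Ccl19-zero fibroblasts. Madcam1 and Cr2 were at most 1.21 and 1.04 CPM in Ccl19-expressing cells, and Grem1 had no UMI there. Levels this low are near the counting limit of the small classes in replicates 1 and 2.

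Chemokines of monocytes and eosinophils gave 9 positive changes of 11 tested (median 0.73) and no call. Ccl2, the main attractant of inflammatory monocytes, stood at 7258, 11900.2 and 8568 CPM in Ccl19-expressing cells, against 4946, 10134 and 3967 CPM in Ccl19-zero fibroblasts. Ccl7 stood at 1552, 3781 and 2710.5 CPM in Ccl19-expressing cells, against 1113, 1603 and 1239 CPM in Ccl19-zero fibroblasts (adjusted p = 0.0797). Cxcl16, a membrane-bound chemokine, stood at 531, 487 and 361 CPM in Ccl19-expressing cells, against 309, 318 and 165 CPM in Ccl19-zero fibroblasts (adjusted p = 0.101). Cxcl1, which like Cxcl5 acts on neutrophils, stood at 557, 254 and 1547 CPM in Ccl19-expressing cells, against 468, 500.2 and 887 CPM in Ccl19-zero fibroblasts, and its classes overlapped. Its fitted log2 change was 0.16, or -0.28 without replicate 3.

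Genes of the acute phase gave 14 positive changes of 15 tested (median 0.74), with Hp the only call. Saa3, a serum amyloid gene, varied between libraries: it stood at 168, 556 and 3622 CPM in Ccl19-expressing cells, against 61.7, 1896 and 664 CPM in Ccl19-zero fibroblasts, where replicate 2 ran opposite to the other libraries, and its fitted change was 0.85, or -0.39 without replicate 3. The interferon gamma response list gave 25 positive changes of 27 tested with a median of 0.40, and no member passed. Cxcl9, an interferon-induced T cell attractant, stood at 4755, 3536 and 5358 CPM in Ccl19-expressing cells, against 2144, 4206 and 1661 CPM in Ccl19-zero fibroblasts. Cell cycle genes gave 0 positive changes of 21 tested (median -0.64) and no call. Their 22 genes summed to 2359, 1268 and 1501 CPM in Ccl19-expressing cells, against 3909, 2179.8 and 1803 CPM in Ccl19-zero fibroblasts, lower in each library. Mki67, a marker of dividing cells, stood at 48.6, 6.25 and 21.5 CPM in Ccl19-expressing cells, against 121, 71.0 and 41.4 CPM in Ccl19-zero fibroblasts (adjusted p = 0.256).

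Type I interferon response genes gave 21 positive changes of 23 tested (median 0.21), NF-kB pathway genes 20 of 24 (0.25) and MHC class I genes 21 of 22 (0.51), all without a call. Matrix protein genes gave 11 positive changes of 29 tested (-0.12), and myofibroblast and TGF-beta target genes 5 of 20 (-0.37). Acta2, the smooth muscle actin of myofibroblasts, stood at 340.5, 362 and 258 CPM in Ccl19-expressing cells, against 377, 446 and 671 CPM in Ccl19-zero fibroblasts (adjusted p = 0.568). Postn, the matrix protein periostin, did not pass and stood at 203, 144 and 374 CPM in Ccl19-expressing cells, against 149, 242 and 944 CPM in Ccl19-zero fibroblasts.

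Within allogeneic replicate 3 the number of cells allowed 6 classes by Ccl19 UMIs: 530 cells with 0, 165 with 1, 150 with 2, 310 with 3 to 5, 223 with 6 to 10 and 423 with 11 or more. Median depth went with the class, at 3102.5, 5815, 5943.5, 7000, 9857 and 18514 UMIs, so these values describe 1 library and its depth together. Cxcl5 stood at 86.8, 195, 251, 307, 622 and 795 CPM over the classes with rising Ccl19. C1s1 stood at 145, 240.0, 259.9, 327, 414 and 599 CPM, and C3 at 508, 928, 962, 1314, 1750.0 and 2578 CPM. All 3 had their lowest value at 0 UMIs and their highest in the top class. Hp stood at 183, 324, 638, 1106, 2970.5 and 2974 CPM and reached its level at 6 to 10 UMIs. Cxcl12, a chemokine of reticular and perivascular stroma, stood at 126, 159, 205, 314, 521 and 772 CPM. Replicate 2 ran the other way for Cxcl12, which stood there at 86.6 CPM in 42 cells with 11 or more UMIs, against 108 CPM at 0. Over whole classes Cxcl12 stood at 44.6, 66.7 and 588 CPM in Ccl19-expressing cells, against 27.7, 108 and 126 CPM in Ccl19-zero fibroblasts, and its fitted log2 change of 1.08 was -0.12 without replicate 3. Il11 was higher in cells without a Ccl19 UMI than in any other class, at 42.1, 5.19, 3.99, 8.14, 3.04 and 2.16 CPM. Col15a1 stood at 618, 362, 327, 289.9, 213 and 201 CPM and Acta2 at 671, 404, 493, 376, 230.2 and 189 CPM, with the top class lowest for both. Cd74 differed mainly between 0 UMIs and the rest, at 675, 1539, 1438, 1729, 1684 and 1862 CPM.

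**Figure D4:**
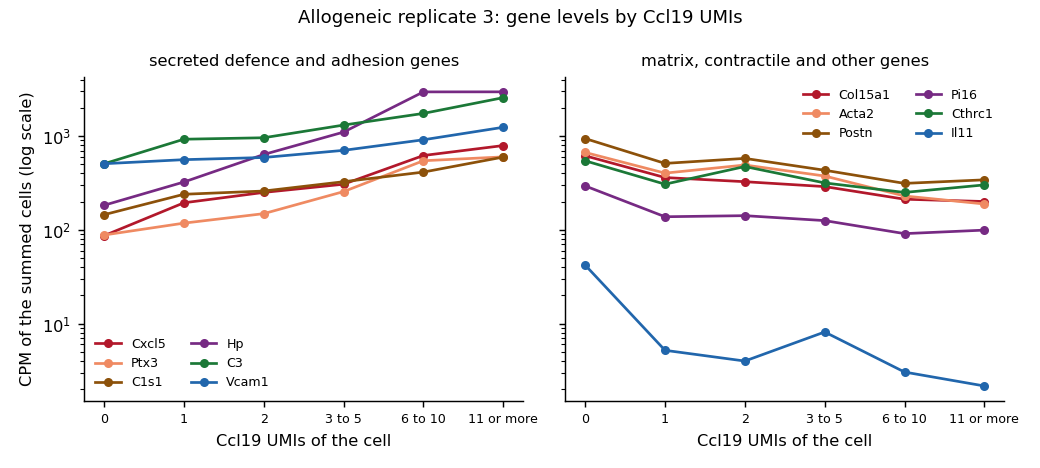
CPM on a log scale over cells of allogeneic replicate 3 summed by their Ccl19 UMIs, from 0 to 11 or more, for 6 secreted defence and adhesion genes (left) and 6 matrix, contractile and other genes (right). Points stand for 150 to 530 cells of 1 library and have no replicate. Cxcl5, C1s1 and C3 are highest in the top class, and Il11 drops between 0 UMIs and 1 UMI.

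A second comparison set the Ccl19-expressing allograft cells against the 4812 isograft fibroblasts with 0 Ccl19 UMIs, to show how they differ from fibroblasts of the control graft. The lone isogeneic library was assumed to vary like the allogeneic ones. Graft type, Ccl19 class, library and any strain difference cannot be told apart in it, and H2 genes differ in sequence between strains. Of 14867 genes, 543 passed edgeR's quasi-likelihood test at an adjusted p under 0.05 (3.65%), 402 higher in Ccl19-expressing allograft cells (2.7%) and 141 lower (0.948%). Without replicate 3 the calls came to 601 higher and 653 lower. Both comparisons use the same Ccl19-expressing cells, so their values are set side by side without a test between them.

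Genes induced by interferon gamma and of antigen presentation passed far more often than the background of 2.7%. Of 28 interferon gamma response genes tested, 25 rose and none fell, and the 3 that did not pass were Ifngr1, Ifngr2 and Jak2, parts of the receptor pathway itself. MHC class I genes gave 20 of 22 and MHC class II genes 8 of 11. All 3 CXCR3 ligands, which attract activated T cells, rose. Cxcl9 stood at 4755, 3536 and 5358 CPM in Ccl19-expressing allograft cells, against 0.893 CPM in isograft fibroblasts (log2 change 12.28 ± 0.68 (SE), adjusted p = 1.67e-07). Cxcl10 stood at 3176, 2163 and 2865 CPM in Ccl19-expressing allograft cells, against 104 CPM in isograft fibroblasts (log2 change 4.69 ± 0.46 (SE), adjusted p = 1.36e-05). The allograft cells exceeded the isograft value in each library by a wide margin for both. Ccl19-zero allograft fibroblasts had 2144, 4206 and 1661 CPM of Cxcl9 and 2753, 2535 and 1632 CPM of Cxcl10, so both genes were high in both allograft classes.

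Ubd, a ubiquitin-like protein gene induced by interferon gamma, stood at 64.9, 167 and 109 CPM in Ccl19-expressing allograft cells and had no UMI in isograft fibroblasts. Against a floor of 3 counts in the isograft library, it was at least 1234-fold, 3173-fold and 2081-fold higher in replicates 1, 2 and 3. Gbp2, a guanylate-binding protein gene, stood at 1388, 1519 and 1378 CPM in Ccl19-expressing allograft cells, against 10.0 CPM in isograft fibroblasts (log2 change 7.13 ± 0.51 (SE), adjusted p = 9.03e-07). H2-Ab1 stood at 963, 932 and 595 CPM in Ccl19-expressing allograft cells, against 17.4 CPM in isograft fibroblasts (log2 change 5.54 ± 0.50 (SE), adjusted p = 6.29e-06). Ciita, the regulator of MHC class II genes, stood at 12.2, 13.5 and 19.3 CPM in Ccl19-expressing allograft cells, against 0.490 CPM in isograft fibroblasts (log2 change 5.01 ± 0.69 (SE), adjusted p = 0.000402). Cd274, which encodes the T cell inhibitory ligand PD-L1, stood at 107, 178 and 159.9 CPM in Ccl19-expressing allograft cells, against 4.40 CPM in isograft fibroblasts (log2 change 5.08 ± 0.51 (SE), adjusted p = 1.37e-05). The Ccl19-zero fibroblasts of the same allografts had 80.9, 162 and 161 CPM of Cd274 and 1279.5, 1589 and 613 CPM of Gbp2, so these genes were high in both allograft classes.

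The 10 largest increases by the naming rule were Ubd, Cxcl9, Gzmb, Ccl19-ps2, Apol11b, Gbp4, AA467197, Gbp6, Ccl5 and H2-Q6. Ccl5, an attractant of T cells and monocytes, stood at 2057, 2431 and 2074 CPM in Ccl19-expressing allograft cells, against 4.89 CPM in isograft fibroblasts (log2 change 8.78 ± 0.55 (SE), adjusted p = 3.49e-07). Gzmb, the granzyme B gene of cytotoxic lymphocytes, stood at 38.5, 64.6 and 94.7 CPM in Ccl19-expressing allograft cells, against 1 count in isograft fibroblasts, a ratio of 2198, 3688 and 5407 in replicates 1, 2 and 3. With the UMIs of the 3 libraries pooled, 94.6% of them from replicate 3, the ratio for Gzmb was 5209 with a 95% counting interval from 934 to 205892, and it was 3182 without replicate 3. Ccl5 and Gzmb are abundant in T and NK cells. The 15 T and NK cell markers summed to 178, 232 and 315 CPM in Ccl19-expressing allograft cells, against 15.6 CPM in isograft fibroblasts, and 10 of 12 tested rose. The part of lymphocyte RNA in the 2 genes was not tested. H2-Q6, Gbp6 and Gbp4 belong to families of near-identical copies, so that their reads may be shared with relatives.

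Chemokines of monocytes and eosinophils rose in 5 of 11 tested (Ccl2, Ccl5, Ccl7, Ccl8 and Cxcl16) and fell in none. Ccl8 stood at 707, 623 and 779 CPM in Ccl19-expressing allograft cells, against 122 CPM in isograft fibroblasts (log2 change 2.50 ± 0.39 (SE), adjusted p = 0.00122). Among lymphoid homing chemokines Cxcl13 passed, with 0, 10.4 and 7.45 CPM in Ccl19-expressing allograft cells, against 0.0876 CPM in isograft fibroblasts (log2 change 6.19 ± 1.21 (SE), adjusted p = 0.00663). The Cxcl13 call was lost without replicate 3. Cxcl12 did not pass, with 44.6, 66.7 and 588 CPM in Ccl19-expressing allograft cells, against 143 CPM in isograft fibroblasts, and its libraries spanned the isograft value. Of neutrophil chemokines and growth factors, 1 of 6 tested passed, the granulocyte growth factor gene Csf3, whose UMIs all came from replicate 3 among the allograft libraries.

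Complement genes moved both ways: 6 of 20 tested rose and 2 fell. C3 stood at 3004, 2383 and 2038 CPM in Ccl19-expressing allograft cells, against 237 CPM in isograft fibroblasts (log2 change 3.35 ± 0.42 (SE), adjusted p = 0.000136). C4b stood at 227, 423 and 168 CPM in Ccl19-expressing allograft cells, against 6.41 CPM in isograft fibroblasts (log2 change 5.38 ± 0.61 (SE), adjusted p = 5.07e-05). C2, C1ra, Cfb and Serping1 were the other genes that rose. C1rb, a second C1r gene, stood at 2.03, 1.04 and 4.70 CPM in Ccl19-expressing allograft cells, against 23.7 CPM in isograft fibroblasts, and fell (log2 change -2.69 ± 0.56 (SE), adjusted p = 0.0101). Cd59a, which blocks the terminal complement complex, stood at 6.08, 9.38 and 11.5 CPM in Ccl19-expressing allograft cells, against 76.5 CPM in isograft fibroblasts, and also fell (log2 change -2.91 ± 0.38 (SE), adjusted p = 0.000194). Ccl19-zero allograft fibroblasts had 2.13, 17.1 and 11.8 CPM of C1rb and 6.39, 14.2 and 48.2 CPM of Cd59a, also below the isograft values. C1ra and C1rb are close copies, so reads may be split between them.

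Reticular stroma genes rose in 7 of 22 tested (Bst1, Tnfsf11, Tnfsf13b, Enpp2, Clu, Vcam1 and Icam1) and fell in 1, the decoy chemokine receptor gene Ackr4. Bst1, a surface enzyme first described on bone marrow stroma, stood at 85.1, 77.1 and 37.5 CPM in Ccl19-expressing allograft cells, against 2.31 CPM in isograft fibroblasts (log2 change 4.74 ± 0.56 (SE), adjusted p = 7.59e-05). Ccl19-zero allograft fibroblasts had 57.5, 114 and 13.9 CPM of Bst1, also above the isograft value and, in replicate 2, above the Ccl19-expressing cells. Enpp2 stood at 79.0, 64.6 and 92.4 CPM in Ccl19-expressing allograft cells, against 6.22 CPM in isograft fibroblasts (log2 change 3.66 ± 0.45 (SE), adjusted p = 0.000120). Tnfsf13b, which encodes the B cell survival factor BAFF, stood at 16.2, 16.7 and 34.2 CPM in Ccl19-expressing allograft cells, against 2.63 CPM in isograft fibroblasts (log2 change 3.23 ± 0.58 (SE), adjusted p = 0.00359). The Tnfsf13b call was lost without replicate 3. Genes of the acute phase rose in 6 of 18 tested. Saa3 stood at 168, 556 and 3622 CPM in Ccl19-expressing allograft cells, against 11.9 CPM in isograft fibroblasts (log2 change 6.97 ± 1.49 (SE), adjusted p = 0.0125). Lcn2, an iron-sequestering defence protein gene, stood at 166, 851 and 627 CPM in Ccl19-expressing allograft cells, against 9.44 CPM in isograft fibroblasts (log2 change 5.86 ± 0.84 (SE), adjusted p = 0.000524). Ccl19-zero allograft fibroblasts had 23.4, 1088 and 39.3 CPM of Lcn2, also above the isograft value and, in replicate 2, above the Ccl19-expressing cells. Hp did not pass in this comparison (adjusted p = 0.0706), its 3 libraries spanning 144, 103 and 2423 CPM.

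Matrix and contractile genes were lower. Of 30 matrix protein genes tested, 8 fell and none rose, and of 23 myofibroblast and TGF-beta target genes 8 fell and 1, Tgfbi, rose. Tagln, a cytoskeletal protein of contractile cells, stood at 243, 182 and 210.5 CPM in Ccl19-expressing allograft cells, against 1427 CPM in isograft fibroblasts (log2 change -2.78 ± 0.30 (SE), adjusted p = 3.94e-05). Postn stood at 203, 144 and 374 CPM in Ccl19-expressing allograft cells, against 1137 CPM in isograft fibroblasts (log2 change -2.23 ± 0.41 (SE), adjusted p = 0.00475). Col15a1 stood at 128, 91.7 and 231 CPM in Ccl19-expressing allograft cells, against 739 CPM in isograft fibroblasts (log2 change -2.28 ± 0.41 (SE), adjusted p = 0.00359). Pi16, a marker of adventitial fibroblasts, stood at 56.7, 86.5 and 106 CPM in Ccl19-expressing allograft cells, against 435 CPM in isograft fibroblasts (log2 change -2.35 ± 0.35 (SE), adjusted p = 0.000764). Ccl19-zero allograft fibroblasts had 53.2, 222 and 787 CPM of Tagln and 40.5, 31.3 and 295 CPM of Pi16. Both genes were therefore below the isograft value in that class too, in each library. The mural cell markers, which include Acta2 and Tagln, summed to 717, 642 and 684 CPM in Ccl19-expressing allograft cells, against 2749 CPM in isograft fibroblasts, and their part was not tested. Of 26 resting and adventitial fibroblast genes 5 fell and 2, the surface protein genes Ly6a and Ly6c1, rose. Il11 stood at 10.1, 6.25 and 3.62 CPM in Ccl19-expressing allograft cells, against 48.2 CPM in isograft fibroblasts (log2 change -3.27 ± 0.46 (SE), adjusted p = 0.000480), while the Ccl19-zero allograft fibroblasts had 34.1, 54.0 and 42.1 CPM. The 10 largest decreases by the naming rule were Col11a1, Pianp, H19, Apoc1, Pde4d, Rps18-ps6, Nkd2, Lypd1, Ckb and Kcnk2, with log2 changes from -3.80 to -3.01. None of the 22 cell cycle genes and none of the 18 immediate early and heat shock genes passed in either direction.

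Some of the calls against isograft fibroblasts rested on 1 library or on the tool. Ciita was lost without replicate 3 (adjusted p = 0.232, edgeR), Ccl2 without replicate 1 (0.0603) or replicate 2 (0.148), and Ccl7, Icam1 and Tgfbi without replicate 2 (0.110, 0.0620 and 0.0647). With DESeq2 the calls of C1rb, Ackr4, Tnfsf11, Csf3, Col11a1, Pianp, H19, Apoc1 and Kcnk2 were lost. Thinning to 2000 UMIs ended those of Ackr4, Icam1, Serping1 and Tgfbi, and a threshold of 3 Ccl19 UMIs that of Tnfsf11.

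**Figure D5:**
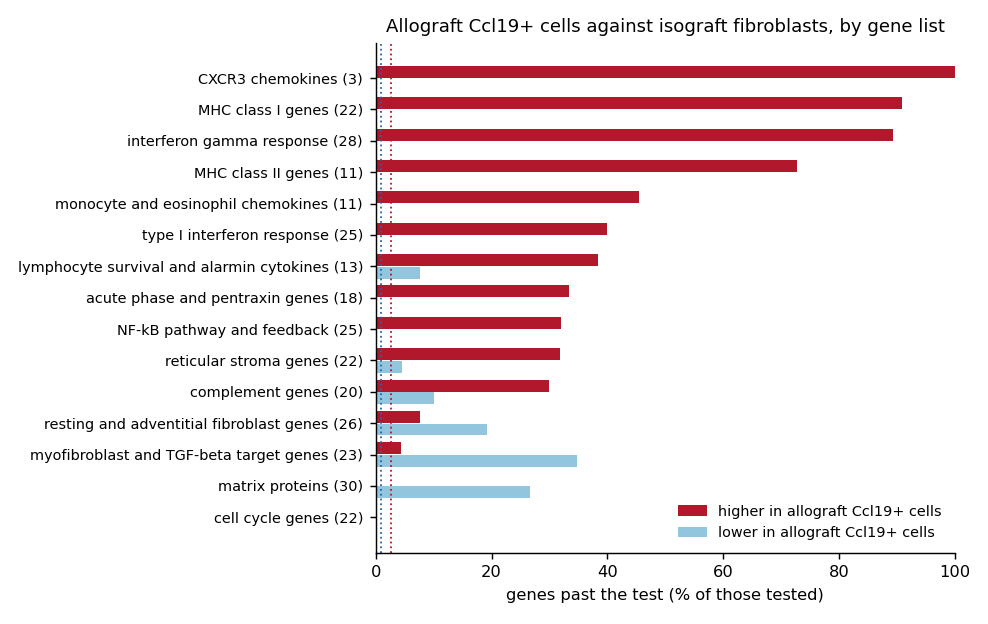
Percentage of the genes tested in each list (their number in brackets) that were higher (red) or lower (blue) in Ccl19-expressing allograft cells than in isograft fibroblasts with 0 Ccl19 UMIs at an edgeR adjusted p under 0.05. Dotted lines mark the 2.7% and 0.948% of all 14867 genes tested. The interferon gamma, MHC and CXCR3 ligand lists reach furthest to the right, and matrix and myofibroblast lists have more lower than higher genes.

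The isograft also held 194 fibroblasts with at least 2 Ccl19 UMIs, with a median depth of 7948 UMIs, against 9518 UMIs in isograft fibroblasts with 0. Their markers differed from those of the allograft cells. C1s1 stood at 622, 580.4 and 482 CPM in Ccl19-expressing allograft cells and at 59.0 CPM in Ccl19-expressing isograft cells. Cxcl5 stood at 124, 156 and 622 CPM in Ccl19-expressing allograft cells and at 22.3 CPM in Ccl19-expressing isograft cells. For Ptx3 the isograft cells, at 129 CPM, lay within the allograft range of 46.6, 179 and 487 CPM. All 3 markers were found together in 2.06% of Ccl19-expressing isograft cells. Some genes that separated the allograft classes also differed within the isograft library. Mmp3 stood at 524 CPM in its Ccl19-expressing cells, against 74.9 CPM in its fibroblasts with 0. C4b stood at 48.1 CPM in them, against 6.41 CPM, and Chil1 at 83.8 CPM, against 2.26 CPM. Vcam1 stood at 652 CPM in them, against 274 CPM, and Fth1 at 8840.0 CPM, against 4371 CPM. Il11 did not follow, at 62.0 CPM in Ccl19-expressing isograft cells, against 48.2 CPM in isograft fibroblasts with 0, nor did Sfrp2, at 69.0 CPM, against 76.8 CPM. Cxcl9 stood at 0.496 CPM in Ccl19-expressing isograft cells, against 0.893 CPM in isograft fibroblasts with 0. With 1 library these isograft values have no replicate check.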

How the data were processed

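Cell suspensions of transplanted mouse hearts were profiled on the 10x Chromium 3' platform. The authors deposited raw UMI counts per gene and barcode for 3 allogeneic libraries and 1 isogeneic library. Per the submitters' processing notes reads were processed with Cell Ranger 3.1.0 on mm10, while the file headers give 6.1.0; the version used is therefore uncertain, and whether counting used strand was not found in the labels or headers. Near-identical genes can share or lose reads. The deposited matrices held 6160, 8396, 6554 and 11473 barcodes, of which 4983, 8215, 6311 and 11386 were kept.

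Counts were read with Python 3.11.15 and scanpy 1.11.5 and summed per library and class. Comparisons across genes used edgeR 4.0.16 in R 4.3.3 (TMM, filterByExpr, glmQLFit and glmQLFTest) with Benjamini-Hochberg adjusted p-values and a threshold of 0.05. Standard errors were derived from the F statistic and are approximate. The comparison within allografts used the library as a block, since both classes of a library were made together. Same-library deviations correlated at 0.33, 0.093 and 0.56, and deviations of different libraries at -0.42 to 0.084. The value of replicate 2 thus lay close to the highest between libraries. Genes of the rule and the markers were not tested. Named genes were those of the lists and, of the genes that passed, moved alike in each library and reached 50 CPM, the 10 largest changes in each direction; Il11 came from a list. The cells and lists were chosen with earlier results of these data known. Doublets were kept in the main analysis and removed with Scrublet at 0.8% per 1000 barcodes as an alternative, because its own threshold marked 6 cells in allogeneic replicate 3. Other alternatives were no replicate block, DESeq2 1.42.0, other size factors, filters, thresholds and gates, thinning to 2000 UMIs, leaving out replicates, and, added after seeing the data, cells with at least 5000 UMIs. The test was also run on simulated counts, with the same mean per gene in every library and a fixed dispersion of 0.05. These counts lack differences between libraries other than depth, so they do not show how the test performs on the real libraries. Intervals are Wilson 95% intervals.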

Additional observations from a re-analysis of the deposited data

Results flagged for a closer look

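The difference between fibroblasts with at least 2 and with 0 Ccl19 UMIs was itself compared between allografts and the isograft by an interaction term in edgeR, with the lone isogeneic library assumed to vary like the others. Of 9681 genes, 2 passed, and 276 had an unadjusted p under 0.05. Igkc, an immunoglobulin light chain gene, stood at 28.4, 31.3 and 152 CPM in Ccl19-expressing allograft cells, against 29.8, 36.9 and 53.6 CPM in Ccl19-zero allograft fibroblasts. In the isograft it stood at 0.496 CPM in Ccl19-expressing cells, against 86.3 CPM in fibroblasts with 0 UMIs. The difference of the log2 changes was 8.38 ± 0.99 (SE, adjusted p = 0.0215). Hbb-bs, a haemoglobin gene, stood at 14.2, 26.1 and 89.8 CPM in Ccl19-expressing allograft cells, against 6.39, 31.3 and 101 CPM in Ccl19-zero allograft fibroblasts. In the isograft it stood at 12.4 CPM in Ccl19-expressing cells, against 305 CPM in fibroblasts with 0 UMIs, and the difference of the log2 changes was 4.69 ± 0.47 (SE, adjusted p = 0.00871). Fibroblasts are not known to make either transcript. For both genes the gap lay mainly within the isograft library, and its source was not tested.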

How the results depend on the processing

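Against Ccl19-zero allograft fibroblasts, the 11 calls became 0 without the replicate block (323 genes with an unadjusted p under 0.05, against 687), 55 with DESeq2 (44 higher, 11 lower, 10 of the 11 shared), 266 with no filter, 20 when no Ptprc, Pecam1 or Cdh5 UMI was allowed, 3 after thinning to 2000 UMIs, and 5 (without replicate 1) to 162 (without replicate 3) when a replicate was left out. Such left-out fits keep 1 residual degree of freedom. In the other 8 alternatives the count was 8 to 15. They include a limit of at least 20 cells per class, which every class met, so that it repeats the main fit. Thinning left fewer genes to test, and otherwise the cause was not tested. Against the isograft, the 543 calls became 1333 with no filter, and 655 (without replicate 1) to 1254 (without replicate 3) with a replicate left out; without replicate 3 the calls were 601 higher and 653 lower, against 402 and 141, and 388 of the 543 remained. In the other 5 alternatives the count was 438 to 570. No paired analysis was possible because the groups of this second comparison share only replicate number 2. The mean share of Ccl19-expressing cells among allograft fibroblasts was 55.2%, 37.2% after thinning to 2000 UMIs and 68.0% among cells with at least 5000 UMIs, and 52.0 to 61.5% with a replicate left out. Over the 39 genes followed in the first comparison, 491 values kept their direction and side of the threshold, 89 moved past it, 29 fell short of it and 3 reversed. Of the 491, 39 came from the limit of at least 20 cells and could not differ. The reversed log2 changes were -0.28 for Cxcl1, -0.12 for Cxcl12 and -0.39 for Saa3, each without replicate 3, against 0.69, 1.96 and 2.22 without replicate 2, and the cause was not tested. Over the 83 followed in the second, 705 kept both, 8 moved past it and 30 fell short. None of these reversed. Replicates 1 and 2, with 20 and 61 Ccl19-expressing cells, limit the genes that could be tested.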
